A study of Homo sapiens with 6 samples.

Results

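The chaperones, folding enzymes, translocon, stress sensors and degradation factors of the endoplasmic reticulum (ER) are described here as 34 genes out of 58825 in the deposited expression table. They were chosen by gene name and role, with no threshold on their measured values, and where a name had several identifiers the one with the highest mean FPKM (fragments per kilobase of gene, scaled to depth) was taken. RNA-seq was performed on PANC-1 cells, a cell line from a human ductal carcinoma of the pancreas, with 3 samples treated with 40 μM maslinic acid (MA, a plant triterpene) for 24 h (MA PANC-1 1 to 3) and 3 untreated samples, at 0 μM (PANC-1 1 to 3). The labels call the latter untreated, while the methods of the study name 0.1% DMSO as the alternative to MA in its cell cultures, so whether these samples received the vehicle is not clear. All samples come from a single cell line grown in the same medium with serum, and the study states that the 3 samples of each group are biological replicates. The depth, as the sum of estimated counts, was 56978375, 63984133 and 58181114 for the treated samples 1 to 3 and 70275355, 65607669 and 59422939 for the untreated samples 1 to 3. These sums of estimates exceed the valid reads that the study lists for each sample, so they are not numbers of sequenced reads. On the first principal component of log2 expression, which held 26.4% of the variance, MA PANC-1 2 stood apart at −73.6, against −29.5 and 16.2 for MA PANC-1 1 and 3 and 18.0 to 44.9 for the untreated samples, so results are also given without it. On the second component, which held 21.4%, MA PANC-1 1 stood apart at 72.2, against −43.0 to 7.85 for the other samples.

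Secretory and membrane proteins enter the ER through the Sec61 channel, fold with the help of BiP (HSPA5), GRP94 (HSP90B1) and the calnexin cycle, and receive their disulfide bonds from the PDI enzymes. When unfolded proteins accumulate, the sensors IRE1 (ERN1), ATF6 and PERK (EIF2AK3) start the unfolded protein response (UPR), in which IRE1 splices XBP1 mRNA, cleaved ATF6 enters the nucleus, and PERK slows translation while favouring that of ATF4. Spliced XBP1 and ATF6 raise chaperone and ER-associated degradation (ERAD) genes, and the PERK arm raises ATF4 targets such as DDIT3 (CHOP). The exocrine pancreas, a heavy secretor of enzymes, depends on this machinery.

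The PANC-1 label was compared with marker genes. The keratins KRT8 and KRT18 stood at 141 to 225 FPKM and 278 to 338 FPKM over the 6 samples, and the mesenchymal filament gene VIM at 521 to 754 FPKM. KRT7 was low, at 1.40 to 2.19 FPKM, and the ductal keratin KRT19 was near 0, at 0.109 FPKM or less in every sample. CDKN2A, which is deleted in PANC-1 cells, was at 0.0612 FPKM or less. The acinar markers PRSS1, CPA1 and AMY2A and the endocrine markers INS, GCG and SST were listed at 0.0001 FPKM, the value the table gives to a gene without reads, in all 6 samples. Of the other lists, DCN, PTPRC, CD3E, PECAM1, CDH5 and VWF stayed at or below 0.0275 FPKM, COL1A1 stood at 2.64 to 5.96 FPKM and CD68 at 25.6 to 40.9 FPKM. The remaining markers COL1A2, LUM and CELA3A reached at most 0.405, 0.616 and 0.00585 FPKM.

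The members were abundant. Of the 34 genes, 33 passed the filter of a mean FPKM of at least 0.1. The exception was DERL3, a derlin with restricted tissue expression, which was listed at 0.0285 FPKM or less. The median member lay at percentile 91.2 of the mean FPKM of the 17774 genes tested. Together the 34 members summed to 1817, 1687 and 1691 FPKM after MA and to 1683, 1736 and 1820 FPKM without, each in the order of replicates 1 to 3. These sums overlapped between the groups and made up 0.581% to 0.657% of the summed FPKM of a sample. CALR had the highest mean of all members, at 289 FPKM over the 6 samples, but HSPA5 exceeded it in PANC-1 2 and MA PANC-1 3.

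**Figure D1:**
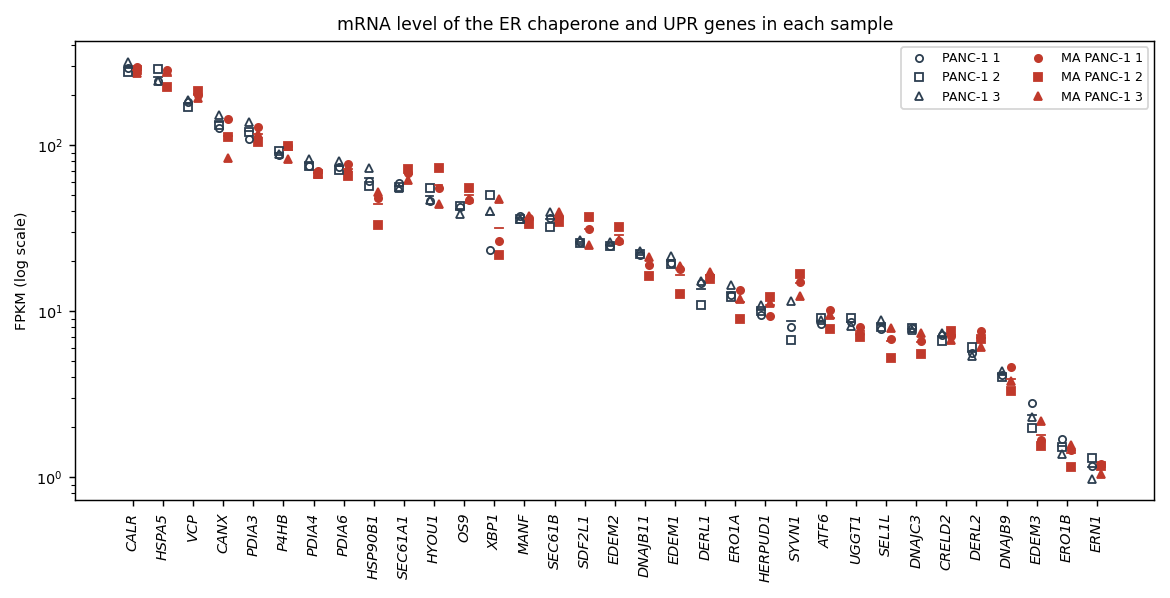
FPKM on a log axis of the 33 members that passed the filter on low values, in falling order of their mean in the untreated samples. Each sample has 1 point (open for the 3 PANC-1 and filled for the 3 MA PANC-1 samples). Levels run from about 1 FPKM for ERN1 and ERO1B to over 200 FPKM for HSPA5 and CALR, and in most genes the filled and open points mix.

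Control elements through which the UPR factors are known to act were looked for close to the gene starts, and their sequences are shown for that reason. The promoter windows of RefSeq (GRCh38.p14, from 250 bases before to 50 bases after the gene start) held 31 of the 34 members. PDIA3, DERL1 and DERL3 were not in the promoter table. The ER stress response element (ERSE) was searched on both strands as CCAAT and CCACG separated by 9 bases of any kind, and its relative ERSE-II as ATTGG and CCACG separated by 1 base. The ERSE letters stood in 8 of 31 members (25.8%) against 27 of 35116 promoters in all (0.0769%), and the ERSE-II letters in 3 of 31 members (9.68%) against 19 promoters (0.0541%). The members were named partly for being known targets of these factors, so the shares describe the list. The 250 bases before the start of HSPA5 (chr9:125241344-125241593, GRCh38.p14, minus strand), the BiP gene whose promoter is the textbook example, read 5′ to 3′ with the ERSE match in capitals:
HSPA5: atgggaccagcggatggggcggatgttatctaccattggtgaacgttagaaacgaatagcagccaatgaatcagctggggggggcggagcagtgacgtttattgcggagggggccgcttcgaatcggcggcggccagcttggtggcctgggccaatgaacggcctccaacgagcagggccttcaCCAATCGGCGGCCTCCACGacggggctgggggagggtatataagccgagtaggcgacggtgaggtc

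All ERSE matches of the members follow, each in its own 5′ to 3′ direction, with the fixed letters in capitals and the free spacer in lower case. The gene strand and the motif strand differ for CALR, CRELD2 and ERO1B and for the second HSP90B1 match. The windows follow RefSeq gene starts, which can differ from the deposited gene positions. For HSP90B1, CANX, PDIA6 and CRELD2 the matches lie inside the deposited span of the gene.
HSPA5, chr9:125241391-125241409: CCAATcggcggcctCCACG
HSP90B1, chr12:103930216-103930234: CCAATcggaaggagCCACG
HSP90B1, chr12:103930321-103930339: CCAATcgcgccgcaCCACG
XBP1, chr22:28800603-28800621: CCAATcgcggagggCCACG
CALR, chr19:12938384-12938402: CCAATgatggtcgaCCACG
PDIA6, chr2:10812853-10812871: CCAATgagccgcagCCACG
CANX, chr5:179698778-179698796: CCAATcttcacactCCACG
CRELD2, chr22:49918554-49918572: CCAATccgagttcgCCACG
ERO1B, chr1:236282183-236282201: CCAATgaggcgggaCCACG

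HERPUD1, SDF2L1 and HYOU1 held the ERSE-II matches, of which HYOU1 had 2. The 8 members with an ERSE match had log2 fold changes (MA PANC-1 over PANC-1) from −0.48 to 0.06 with a median of −0.07, and the 3 with an ERSE-II match from 0.14 to 0.29. Without MA PANC-1 2 the latter fell to 0.01 for HERPUD1, 0.01 for HYOU1 and 0.10 for SDF2L1. Their highest values with a sample left out were 0.25, 0.44 and 0.44. In the comparison given below, HSP90B1 alone among these 11 genes passed a p-value of 0.05 before adjustment, and it was lower after MA. The UPRE letters TGACGTGG, an XBP1 and ATF6 element, stood in HYOU1 and VCP, against 0.729% of all promoters. A match describes the letters in this window and not the binding of a factor, which these data did not measure.

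Next, treated and untreated cells were compared by edgeR's quasi-likelihood test on the estimated counts, with Benjamini-Hochberg adjustment over all 17774 genes. A gene is described as called where its p-value, before adjustment, was under 0.05. This held for 5 of the 33 members tested (15.2%), against 11.2% of all genes tested and 13.2% of those whose mean FPKM was 1 or more. Of these, 4 were higher after MA (SYVN1, SEC61A1, DERL2 and OS9), against a background of 5.37%, and 1 was lower (HSP90B1), against 5.86%. Of the genes whose mean FPKM was 1 or more, 7.12% were called as higher and 6.05% as lower. Without MA PANC-1 2 the counts of members were 1 higher and 2 lower. A level in bulk RNA does not tell fewer expressing cells from less RNA per cell. No member had an adjusted p-value under 0.05, the smallest being 0.388, whereas 0.0394% of all genes did. DESeq2 gave 1 such member, SYVN1 (adjusted p = 0.0481), and limma gave 0. No member met the thresholds of the study, which ask in addition for a 2-fold change in either direction and were met by 1.92% of all genes.

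The changes went in both directions. Log2 fold changes ran from −0.48 (HSP90B1) to 0.79 (SYVN1), 17 positive and 16 negative, with a median of 0.01 against 0.00 over all genes tested. The median size of the log2 fold change, without its sign, was 0.21 for the members, 0.22 for all genes tested and 0.18 for those whose mean FPKM was 1 or more. The 95% confidence interval lay within a 2-fold change in either direction for 31 of the 33 members, the exceptions being XBP1 and SYVN1, and within 1.5-fold for 23. For comparison, the interval lay within 2-fold for 62.5% of all genes tested and for 85.9% of those whose mean FPKM was 1 or more. The groups did not overlap in FPKM for 13 of the 33 members (39.4%), against 19.9% of all genes tested and 22.6% of those whose mean FPKM was 1 or more. Of these, 7 lay wholly higher after MA, against 8.79% of all genes, and 6 wholly lower, against 11.1%. Of the genes whose mean FPKM was 1 or more, 11.3% lay wholly higher and 11.4% wholly lower.

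**Figure D2:**
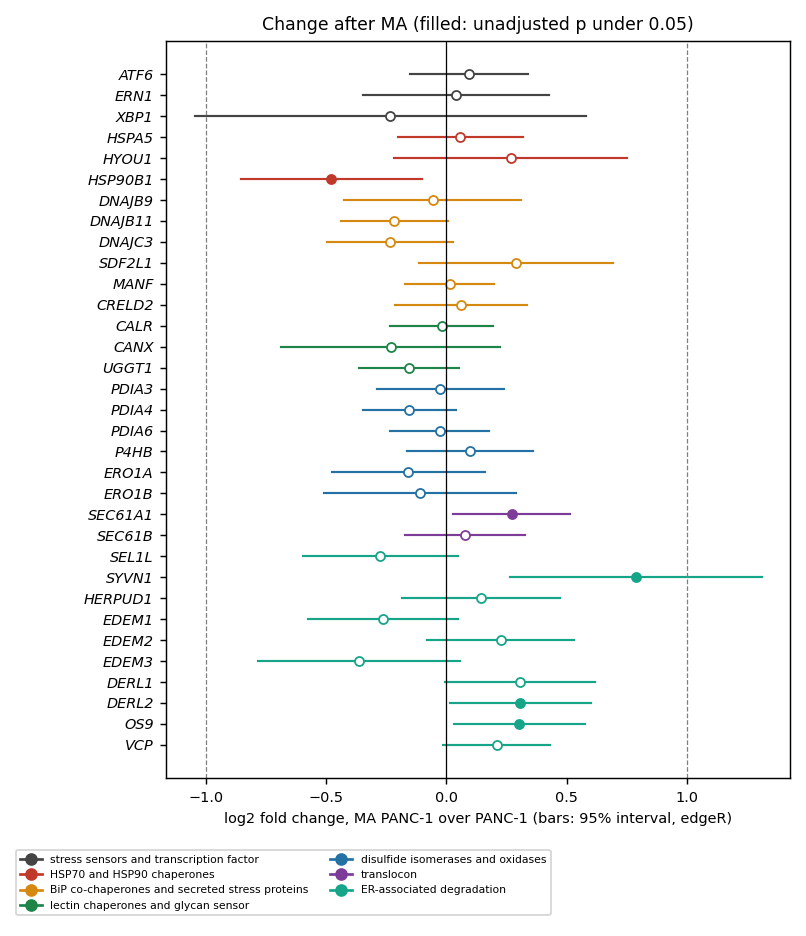
Log2 fold change of MA PANC-1 over PANC-1 for the 33 members tested, by role, with bars for the 95% confidence interval of edgeR's quasi-likelihood fit and filled points for called genes. The values lie from −0.48 to 0.79, and the widest intervals belong to XBP1 and SYVN1.

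Among the sensors, ATF6, the ER-anchored factor that is cut free by Golgi proteases, stood at 10.2, 7.81 and 9.43 FPKM after MA and at 8.36, 9.12 and 8.81 FPKM without, in the order of replicates 1 to 3 as for all values below. The untreated values lay inside the range of the treated ones. ERN1, the IRE1 kinase and nuclease, was the scarcest of the sensors at 1.21, 1.18 and 1.05 FPKM after MA and 1.17, 1.30 and 0.975 FPKM without. Its groups overlapped, with a log2 fold change of 0.04 (95% confidence interval −0.35 to 0.43).

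XBP1, the transcription factor whose mRNA IRE1 splices, was measured at 26.3, 21.7 and 47.1 FPKM after MA and at 23.2, 50.3 and 40.3 FPKM without. Both groups thus held low and high samples, MA PANC-1 3 lying near PANC-1 2 and 3, and PANC-1 1 near MA PANC-1 1 and 2. The log2 fold change was −0.23 with a 95% confidence interval from −1.05 to 0.58, so that a 2-fold fall was within the interval. With each sample left out in turn it ran from −0.60 to 0.03, and it was −0.05 without MA PANC-1 2. The coefficient of variation among the untreated samples was 36.1%. A gene-level value does not separate spliced from unspliced XBP1.

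HSPA5, the ER HSP70 that holds the sensors inactive in unstressed cells, is commonly read as the marker of the UPR. Its levels were 284, 224 and 277 FPKM after MA and 242, 286 and 244 FPKM without. The highest and the lowest of the 6 samples were PANC-1 2 and MA PANC-1 2. The log2 fold change was 0.06 (standard error 0.11, 95% confidence interval −0.20 to 0.32), which bounds a change in either direction to a fold between 0.869 and 1.25 (adjusted p = 0.862 in edgeR's quasi-likelihood test). HYOU1, the HSP110-like exchange factor of BiP, had a log2 fold change of 0.27 (95% confidence interval −0.22 to 0.75), which rested on MA PANC-1 2, at 72.4 FPKM, and was 0.01 without it.

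HSP90B1, the ER HSP90 that folds integrins and Toll-like receptors, was the member with the lowest fold change. It stood at 47.7, 33.1 and 52.3 FPKM after MA and at 60.7, 56.5 and 72.2 FPKM without. Every treated sample lay under every untreated sample, and MA PANC-1 2 was the lowest. The means were 44.4 ± 10.0 FPKM (SD, n = 3) and 63.1 ± 8.14 FPKM (SD, n = 3). The log2 fold change was −0.48 with a standard error of 0.16, and the gene was called as lower (adjusted p = 0.423 in edgeR's quasi-likelihood test). An exact two-sided permutation test of the log2 FPKM gave p = 0.1, the smallest that 3 samples against 3 allow. With each sample left out in turn the log2 fold change ran from −0.59 to −0.34, and without PANC-1 3, at −0.38, the gene was not called. The study names the HSP90B1 protein among housekeeping proteins that it describes as stable with and without MA. That is a measure of protein, while the values here are of mRNA. HSP90B1 (ENSG00000166598) spans chr12:103930107-103947927 on the plus strand of GRCh38 in the deposited table.

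The co-chaperones of BiP were mixed. DNAJB11 (ERdj3), which hands unfolded clients to BiP, stood at 19.0, 16.4 and 21.2 FPKM after MA and at 21.8, 22.2 and 23.1 FPKM without. DNAJC3 (p58IPK), another J-domain partner of BiP, stood at 6.66, 5.50 and 7.37 FPKM after MA and at 7.93, 7.90 and 7.67 FPKM without. In both genes the treated samples lay wholly below the untreated ones, but neither gene was called, at log2 fold changes of −0.22 and −0.24. SDF2L1, MANF, CRELD2 and DNAJB9 overlapped between the groups, with log2 fold changes of 0.29, 0.01, 0.06 and −0.06. Without MA PANC-1 2 these were 0.10, 0.02, −0.03 and 0.01. The induction of DNAJB9 and SDF2L1 is well known in ER stress, yet neither was called with all samples. With each sample left out in turn, SDF2L1 ran from 0.10 to 0.44 and was called in 1 of the 6 fits.

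In the calnexin cycle, which retains glycoproteins until they fold, CALR was at 283 ± 9.99 FPKM (SD, n = 3) after MA and 294 ± 21.5 FPKM (SD, n = 3) without, and its log2 fold change was −0.02 (95% confidence interval −0.23 to 0.19). CANX, the membrane-bound lectin, spread from 83.8 FPKM in MA PANC-1 3 to 144 FPKM in MA PANC-1 1, a range that included PANC-1 1 and 2 but not PANC-1 3, at 151 FPKM. UGGT1, the glucosyltransferase that marks misfolded glycoproteins for another round, was at 8.07, 7.03 and 7.61 FPKM after MA and at 8.65, 9.11 and 8.18 FPKM without. Its groups did not overlap, but the gap between the nearest samples was small (log2 fold change −0.16, not called).

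None of the 6 disulfide isomerases and oxidases was called, against 11.2% of all genes. PDIA4, an isomerase with several thioredoxin domains, came closest, at 70.1, 66.8 and 66.9 FPKM after MA and 74.9, 75.2 and 82.5 FPKM without (log2 fold change −0.15). Its treated samples all lay below the untreated ones. PDIA4 was called as lower without MA PANC-1 2 (−0.18), by limma with either pseudocount (−0.19) and with the GC trend removed (−0.23). PDIA3 (ERp57), PDIA6, P4HB (PDI) and the oxidases ERO1A and ERO1B overlapped, with log2 fold changes from −0.16 (ERO1A) to 0.10 (P4HB). All 6 of these genes had 95% confidence intervals within 1.5-fold. The processed pseudogene PDIA3P1 held 4.85% of the counts of PDIA3 and itself together, so reads shared between the copies could be split differently.

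SEC61A1, the pore-forming subunit of the translocon, was measured at 67.8, 71.3 and 61.3 FPKM after MA and at 59.3, 56.1 and 55.4 FPKM without. Treated samples lay above all untreated ones, and the nearest pair was MA PANC-1 3 and PANC-1 1. The log2 fold change was 0.27 (standard error 0.10, adjusted p = 0.434 in edgeR's quasi-likelihood test). The call rested on all samples but MA PANC-1 3, since with any other sample left out SEC61A1 was not called. The lowest log2 fold change among these was 0.18, without MA PANC-1 2, and the others were 0.28 without MA PANC-1 1 and 0.30, 0.26 and 0.25 without PANC-1 1, 2 and 3. SEC61B, the small tail-anchored subunit, overlapped between the groups, with a log2 fold change of 0.08.

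**Figure D3:**
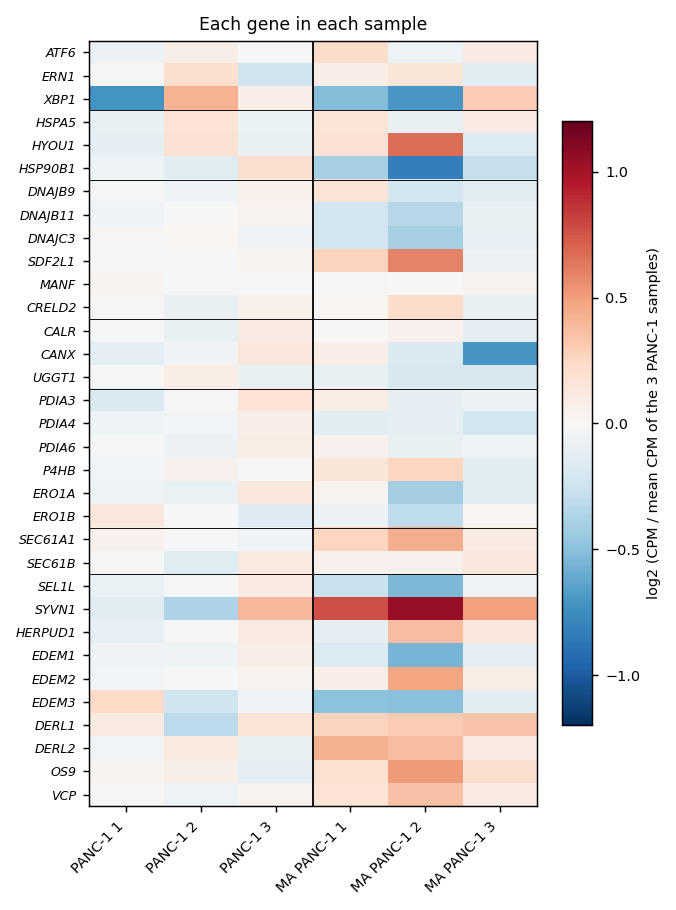
Heat map of log2 of the CPM (counts scaled to library size with TMM factors) of each member in each of the 6 samples over the mean CPM of the 3 PANC-1 samples, with genes in rows by role and samples in columns. SYVN1 and HSP90B1 separate the groups in opposite directions, and XBP1 and CANX differ among samples of the same group.

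ERAD, which extracts misfolded proteins to the cytosol for the proteasome, held 3 of the 4 members that were higher. Of its 11 genes 10 were tested, 3 were called as higher and 0 as lower, against 5.37% and 5.86% of all genes. Among genes whose mean FPKM was 1 or more, these shares were 7.12% and 6.05%. In 6 of the 10 the treated samples lay wholly above the untreated ones and in 1, EDEM1, wholly below. The shares were 8.79% and 11.1% of all genes, and 11.3% and 11.4% of those whose mean FPKM was 1 or more. The median log2 fold change of the 10 was 0.22, and its members went both ways. Without MA PANC-1 2 the median was 0.11, and SYVN1 alone was called. Among 23 other ERAD factors, taken from the related genes described below, 2 were called as higher and 0 as lower, and the median was −0.02. Without MA PANC-1 2 that median was 0.04. In 4 of these 23 the treated samples lay wholly above the untreated ones and in 1 wholly below. With the GC trend removed, as described below, the medians were 0.14 for the 10 members and 0.12 for the 23 others, and 4 genes of each list were called as higher.

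SYVN1 (HRD1), the ubiquitin ligase at the centre of the retrotranslocation complex, had the highest fold change of all members. It stood at 14.9, 16.8 and 12.4 FPKM after MA and at 8.05, 6.72 and 11.6 FPKM without. The groups did not overlap, although PANC-1 3 came close to MA PANC-1 3. The means were 14.7 ± 2.19 FPKM (SD, n = 3) and 8.78 ± 2.51 FPKM (SD, n = 3), and the log2 fold change was 0.79 (standard error 0.22, adjusted p = 0.388 in edgeR's quasi-likelihood test). Leaving out each sample in turn gave 0.63 to 1.03, the highest without PANC-1 3, and the gene was called each time. SYVN1 (ENSG00000162298, chr11:65121780-65134532, minus strand, GRCh38) overlaps FAU, a ribosomal protein gene, by 374 bases on the same strand. FAU held 83.0% of the counts of the overlapping genes with SYVN1, and its own log2 fold change was 0.24 (not called). The log2 fold change of their sum was 0.33. That sum is made up mostly of FAU, so it does not show how shared reads affect the value of SYVN1. SEL1L, the obligate partner of HRD1, had a log2 fold change of −0.28 (95% confidence interval −0.60 to 0.05), which was −0.16 without MA PANC-1 2, and its groups overlapped.

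DERL1 and DERL2, derlins of the retrotranslocation channel, lay higher in FPKM in all treated samples than in any untreated one. DERL2 was at 7.59, 6.83 and 6.13 FPKM after MA and 5.56, 6.12 and 5.36 FPKM without, so that MA PANC-1 3 and PANC-1 2 nearly coincided (log2 fold change 0.31, standard error 0.12, adjusted p = 0.439 in edgeR's quasi-likelihood test). It was not called by limma with either pseudocount, where the log2 fold change was 0.26 and 0.23, nor when only genes with a mean FPKM of 1 or more were fitted (0.29), nor without MA PANC-1 1 or 2 (0.24 and 0.27) or PANC-1 1 or 3 (0.29 and 0.26). DERL1 was at 16.3, 15.6 and 17.3 FPKM after MA and 14.8, 10.9 and 15.2 FPKM without, and was not called. PANC-1 2 was the lowest of its 6 samples.

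OS9, the lectin that recognises trimmed glycans, was at 46.7, 54.8 and 47.6 FPKM after MA and 42.6, 43.1 and 38.5 FPKM without. Treated and untreated samples stood apart, MA PANC-1 2 being the highest, and the log2 fold change was 0.30 (standard error 0.12, adjusted p = 0.433 in edgeR's quasi-likelihood test). It was 0.18 and not called without MA PANC-1 2, and also not called without PANC-1 1, 2 or 3, where it was 0.32, 0.33 and 0.25. VCP (p97), the ATPase that pulls substrates out of the membrane, stood at 200.1, 211 and 193 FPKM after MA and 182, 170.3 and 185 FPKM without. Its groups did not overlap either (log2 fold change 0.21, and 0.13 without MA PANC-1 2, not called).

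The EDEM genes, which encode mannose-trimming factors that commit glycoproteins to degradation, were split. EDEM2 stood at 26.5, 32.3 and 26.9 FPKM after MA and at 24.7, 24.7 and 26.0 FPKM without, the treated samples all above the untreated ones. EDEM1 stood at 17.9, 12.6 and 18.8 FPKM after MA and at 19.6, 19.3 and 21.4 FPKM without, the treated samples all below, with MA PANC-1 2 the lowest. Neither was called, and without MA PANC-1 2 the log2 fold changes of EDEM2 and EDEM1 moved from 0.23 and −0.26 to 0.08 and −0.14. EDEM3 overlapped, with a log2 fold change of −0.36. HERPUD1, an ERAD scaffold that is commonly induced in ER stress, overlapped as well, with 10.9 ± 1.42 FPKM (SD, n = 3) after MA and 10.2 ± 0.726 FPKM (SD, n = 3) without.

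The sign of the members' changes tracked the base composition of their transcripts. Across the 33 members, Pearson's r between the GC content of the longest transcript and the log2 fold change was 0.61 and Spearman's rho 0.62, as a description, since all points come from the same 6 libraries. Of the 15 members under 45% GC, 3 had a positive log2 fold change (median −0.16), and of the 13 at 50% or more, 11 did (median 0.21). The same order was seen outside the list, where Pearson's r over all genes tested was lower, at 0.15. All genes whose mean FPKM was 1 or more were split by GC into 4 groups of nearly equal size. Their median log2 fold changes were −0.18, −0.02, 0.11 and 0.16 from the lowest to the highest GC, with 38 genes called as higher and 359 as lower in the lowest group and 345 as higher and 47 as lower in the highest. Among the called members, HSP90B1, at 41.2% GC, and SYVN1, SEC61A1 and OS9, at 56.3%, 53.8% and 51.8%, lay on the corresponding sides. DERL2 did not, with 39.4% GC and a log2 fold change of 0.31.

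By sample, r between GC and the log2 ratio to the mean of PANC-1 was 0.46 in MA PANC-1 1, 0.73 in MA PANC-1 2 and 0.15 in MA PANC-1 3. The count-weighted GC content of the library was 51.2% in MA PANC-1 2 against 49.8% to 50.3% in the others. Without MA PANC-1 2, r over the members was 0.38, and the log2 fold changes of HSP90B1 and SYVN1 were −0.34 and 0.64, both still called. When a smooth GC trend was removed from each library, an alternative chosen after seeing the data, the 5 called members kept their sign and their call, at log2 fold changes of −0.32 for HSP90B1, 0.66 for SYVN1, 0.18 for SEC61A1, 0.54 for DERL2 and 0.24 for OS9. ATF6 (0.26), DERL1 (0.42) and PDIA4 (−0.23) were then called as well, while DNAJB11 and DNAJC3 stood at 0.04 and −0.04. Of the other members not called, SDF2L1 and HYOU1 were at 0.11 and 0.15, and EDEM3, SEL1L, XBP1, UGGT1 and CANX were at −0.13, −0.07, −0.11, −0.09 and −0.05. What sets the relation to GC was not tested.

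**Figure D4:**
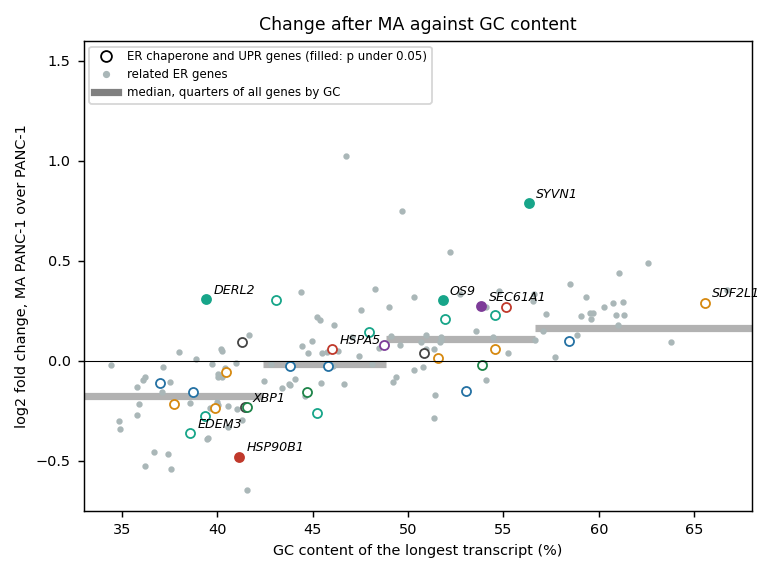
Log2 fold change of MA PANC-1 over PANC-1 against the GC content (percent) of the longest transcript for the 33 members (circles coloured by role, filled where called) and 119 related ER genes (small grey points), with thick bars for the medians of the 4 GC groups of all genes at a mean FPKM of 1 or more. The points climb from left to right, as do the bars, from −0.18 to 0.16.

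The rest of the pathway was followed in 119 related ER genes, all of which passed the filter. Of these, 10 were called as higher and 5 as lower, 12.6% of the list against the 11.2% of all genes and the 13.2% of those whose mean FPKM was 1 or more. No gene of the list had an adjusted p-value under 0.05, the smallest being 0.375 in edgeR's quasi-likelihood test, and the median log2 fold change was 0.04. Under DESeq2 the values of DDIT3 (adjusted p = 0.0148) and ATF3 (adjusted p = 0.0263) were under 0.05. The thresholds of the study were met by 1 of the 119, ATF3.

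Of the 9 genes of the PERK arm, DDIT3, ATF3 and CHAC1 were called as higher and 0 as lower, against 5.37% and 5.86% of all genes. Among genes whose mean FPKM was 1 or more, these shares were 7.12% and 6.05%. DDIT3, which encodes the factor CHOP, stood at 57.0, 35.4 and 45.8 FPKM after MA and at 30.9, 24.0 and 29.1 FPKM without. All treated samples lay above the untreated ones, MA PANC-1 1 the highest, and the log2 fold change was 0.75 (standard error 0.17, adjusted p = 0.375 in edgeR's quasi-likelihood test). ATF3, a stress-induced factor of the same family as ATF4, stood at 7.30, 5.57 and 12.7 FPKM after MA and at 3.38, 4.55 and 4.81 FPKM without. Its groups did not overlap, MA PANC-1 3 being far above the rest, and its log2 fold change was 1.02 (standard error 0.29, adjusted p = 0.388 in edgeR's quasi-likelihood test). Leaving out MA PANC-1 3 reduced it to 0.65.

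CHAC1, a glutathione-degrading enzyme induced through ATF4, stood at 50.9, 64.0 and 46.1 FPKM after MA and at 39.4, 45.6 and 33.1 FPKM without, where MA PANC-1 3 and PANC-1 2 nearly met (log2 fold change 0.49, adjusted p = 0.432 in edgeR's quasi-likelihood test). Without MA PANC-1 2 it was 0.30 and not called, and without PANC-1 1 or 3 it was 0.49 and 0.38 and not called. ATF4 itself was at 216 to 267 FPKM with a log2 fold change of 0.10 (95% confidence interval −0.13 to 0.33), a level of mRNA that does not report on its translation. EIF2AK3 (0.07), PPP1R15A (0.13), PPP1R15B (−0.14), TRIB3 (0.23) and NUPR1 (−0.05) were not called. TRIB3, another ATF4 target, ranged from 48.7 to 97.6 FPKM within the untreated group.

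The C/EBP-ATF response element through which ATF4 acts was searched on both strands as TGATGNAAN, and the matches of the called PERK-arm genes are shown with the fixed letters in capitals (RefSeq, GRCh38.p14). These letters stood in 3.61% of all promoters, in 6 of the 100 related genes found in the table, and in 1 member, HERPUD1. The window of DDIT3 held none, and that of PPP1R15B, a PERK-arm gene that was not called (log2 fold change −0.14), held a match.
ATF3, chr1:212565216-212565224: TGATGgAAg
CHAC1, chr15:40953261-40953269: TGATGcAAc

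**Figure D5:**
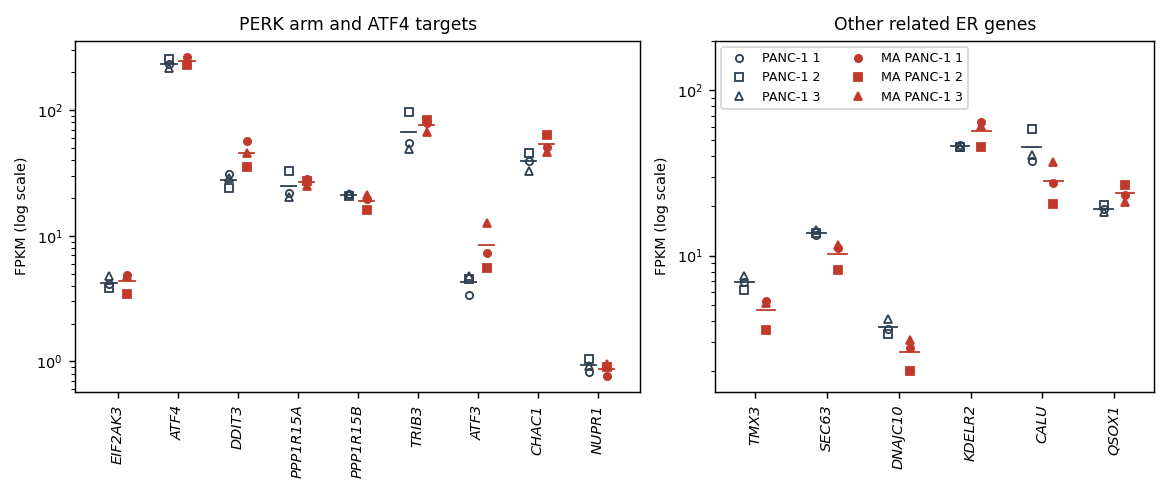
FPKM on a log axis per sample (open for PANC-1, filled for MA PANC-1, shapes for the replicate, lines for group means) of the 9 genes of the PERK arm on the left and of 6 other related genes with small p-values on the right. DDIT3, ATF3 and CHAC1 lie higher in all MA PANC-1 samples, while the points of ATF4, TRIB3 and NUPR1 mix.

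Other related genes with small p-values spread over several roles. KDELR2, a receptor that returns ER proteins from the Golgi, stood at 64.5, 45.5 and 60.6 FPKM after MA and at 46.7, 45.4 and 45.3 FPKM without (log2 fold change 0.34). Its groups overlapped, since MA PANC-1 2 lay among the untreated samples, and it was not called by limma (0.30 and 0.29 with pseudocounts of 0.1 and 1) or without MA PANC-1 1 or 3 (0.26 and 0.31) or PANC-1 2 or 3 (0.34 and 0.33). QSOX1, a sulfhydryl oxidase, stood at 23.2, 26.9 and 21.3 FPKM after MA and at 19.1, 20.2 and 18.4 FPKM without (log2 fold change 0.35). Its groups stood apart, but it was not called without PANC-1 1 or 3 (0.34 and 0.31), and without MA PANC-1 2 the value was 0.21.

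The 4 called as lower among the genes with the smallest p-values are folding and translocation factors. TMX3, a membrane-bound disulfide isomerase, stood at 5.34, 3.56 and 5.17 FPKM after MA and at 6.93, 6.18 and 7.56 FPKM without (log2 fold change −0.53). SEC63, the J-domain protein that recruits BiP to the translocon, stood at 11.1, 8.23 and 11.5 FPKM after MA and at 13.3, 13.8 and 14.2 FPKM without (log2 fold change −0.39). DNAJC10 (ERdj5), a disulfide reductase that works with BiP, stood at 2.77, 2.01 and 3.09 FPKM after MA and at 3.60, 3.36 and 4.14 FPKM without (log2 fold change −0.46). In each of these genes the treated samples lay wholly below the untreated ones, with MA PANC-1 2 the lowest, and DNAJC10 was not called without PANC-1 3 (−0.38). Their transcripts held 36.2%, 39.4% and 37.4% GC, and with the GC trend removed the log2 fold changes of TMX3, SEC63 and DNAJC10 were −0.23, −0.18 and −0.21, all still called. CALU, a calcium-binding protein of the secretory pathway, stood at 27.6, 20.5 and 37.1 FPKM after MA and at 37.2, 58.2 and 40.4 FPKM without (log2 fold change −0.65), where the level of PANC-1 2 stood out. Without PANC-1 2 the value was −0.42 and CALU was not called, nor was it without MA PANC-1 1 or 2 (−0.62 and −0.49). The adjusted p-values of these 4 genes in edgeR's quasi-likelihood test ran from 0.388 to 0.429.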

How the data were processed

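The authors deposited, per the file headers, an FPKM value and an estimated count per gene and sample. FPKM was normalized by the authors per kilobase and for depth, with 0.0001 listed for genes without reads, and the deposited estimated counts were whole numbers without normalization. The submitters' processing notes list cutadapt 1.9, HISAT2 2.0.4, StringTie 1.3.4d, edgeR and DESeq2. Gene positions fit GRCh38, and the annotation release and strand setting are not given in the sources used here. The libraries were made from poly(A) RNA with dUTP marking.

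Samples were grouped by their labels. The members and lists were chosen with earlier results of these data known, so lists were described by counts and medians and not tested. A gene was tested where its FPKM averaged 0.1 or more, with edgeR 4.0.16 in R 4.3.3 (TMM, quasi-likelihood test, Benjamini-Hochberg adjustment over 17774 genes). All 34 members are named, and values in every sample are given for HSPA5, XBP1, ATF6 and ERN1, for members with an unadjusted p-value under 0.05 or groups not overlapping in FPKM, and for the 10 related genes with the smallest p-values. An item that this rule names is left out of the text. Single values had an exact permutation test on log2(FPKM + 0.1). The 56978375 to 70275355 estimated counts per sample exceed the valid reads listed by the study, so the spread between samples was taken as the measure of precision. Alternatives were DESeq2 1.42.0, DESeq2 size factors and upper-quartile factors in edgeR, limma 3.58.1 with pseudocounts of 0.1 and 1, other filters on FPKM, halved counts, summed overlapping or same-named genes, a replicate block, leaving out each sample, and 2 settings chosen after seeing the data, a GC trend removed (loess, span 0.5) and overlap judged on CPM. The fits were tested on simulated data. Motifs were searched in RefSeq promoter windows.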

Additional observations from a re-analysis of the deposited data

How the results depend on the processing

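The median log2 fold change of the members was 0.01 and lay between −0.02 and 0.06 under the 12 alternatives with all samples, and it was negative under limma with either pseudocount (−0.02), at a mean FPKM of 1 or more (−0.0063) and without a filter (−0.0094). No called gene named here changed sign, while 10 of the 28 members not called did under some alternative with all samples, such as DNAJB11, which ran from −0.26 to 0.04. The count of members with an unadjusted p-value under 0.05 that were higher (4) stayed from 3 to 6 with all samples and ran from 1 to 7 with a sample left out. The count lower (1) was 2 with the GC trend removed, under limma with a pseudocount of 0.1 or 1, at a mean FPKM of 1 or more and with upper-quartile factors, and ran from 0 (without PANC-1 3) to 6 (without MA PANC-1 3). A 2-fold change was met by 0 to 1 members with a sample left out, and DESeq2 gave 1 member an adjusted p-value under 0.05. Of the 28 members not called, 17 passed under no alternative and with no sample left out. On TMM-scaled CPM, 6 members lay wholly higher and 6 wholly lower, while DERL2 overlapped, with MA PANC-1 3 below PANC-1 2.

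Of the related genes, the count higher (10) was 18 with the GC trend removed and 6 under limma with either pseudocount and with upper-quartile factors, and ran from 3 to 17 with a sample left out. The count lower (5) ran from 3 to 12, and the median (0.04) was 0.00092 and 0.00082 under limma with pseudocounts of 0.1 and 1. Over all genes, the 7 with an adjusted p-value under 0.05 became 226 with DESeq2, 33 with the GC trend removed, 12 at a mean FPKM of 1 or more and 3 to 24 with a sample left out. The 342 past the thresholds of the study became 44 under limma with a pseudocount of 1, 93 at a mean FPKM of 1 or more, 569 without a filter and 326 to 534 with a sample left out. The cause of these shifts was not tested.

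Same-numbered samples did not deviate together (r = 0.03, 0.05 and 0.07 for replicates 1, 2 and 3), so the numbers were not taken as pairs. With the replicate block, 0 genes had an adjusted p-value under 0.05. In that fit 5 members were called as higher and 2 as lower, and 12 related genes as higher and 11 as lower. With 3 samples a group no exact two-sided permutation test can go below 0.1.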
